A study of Danio rerio with 8 samples.

Results

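The genes described here are 9 genes of the p53 response and of apoptosis, measured by RNA sequencing in zebrafish embryos. They were found in the gene count table by symbol, with case ignored and with or without the a/b paralog suffix. This gave 10 rows of the 32020 in the table: mdm2, cdkn1a, CCNG1, TP53INP1, bbc3, BAX (for baxa), casp8, SESN1 and 2 rows that both carry the name GADD45A (for gadd45aa). The name table does not say which of these 2 rows is gadd45aa and which its paralog, so both are reported. 9 of the 10 rows had enough counts to be tested, among 14249 tested rows of the whole table.

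Total RNA came from 4 control embryo samples (libraries 1 to 4) and 4 samples of embryos exposed to 7,17-diHDPAn-3 (libraries 5 to 8), a lipid mediator made from an omega-3 docosapentaenoic acid by adding hydroxyl groups. The design text names the AB wild-type strain and the reporter lines Tg(gata1: Dsred) and Tg(CD41:GFP), and no label states which of them gave these libraries. Every library name contains gata_1, a tag that is not explained. It describes a screen at 1.5 µM from 11 to 36 hours post fertilization and further doses between 1 and 1.75 µM, with the compound dissolved in ethanol. Which dose, hours and vehicle apply to these 8 libraries is not stated in the labels. The name of control 4 also holds an unexplained 2b, and whether it ties that library to another is not known. Whether replicate libraries derive from different clutches is not stated either, so the p-values cover variation between libraries that could be technical only.

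The transcription factor p53 is held at a low level by mdm2, a ubiquitin ligase that marks it for degradation and whose gene is itself a p53 target. After DNA damage or other stress p53 accumulates and raises genes of cell cycle control (cdkn1a, ccng1, gadd45a). It also raises genes that limit growth and oxidative stress (sesn1, tp53inp1) or open the mitochondrial pathway of cell death (bbc3, bax). Caspase-8 starts a separate route to death from receptors at the cell surface. In zebrafish embryos many developmental insults are known to raise mdm2, cdkn1a and ccng1. Roles named below are known mainly from mammals.

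Library totals ran from 2502636 counts in treated 5 to 4794081 in control 1. The 10 rows together held between 0.0253% and 0.0349% of the counts of a library. Although the cell type is labelled as red cells and their progenitors, transcripts of other tissues were present in all 8 libraries. Red cell markers (12 rows) took 0.351% to 0.772% of counts in controls and 0.313% to 0.740% in treated libraries. Muscle markers (23 rows, 3 of them at 0 in all libraries) took 0.125% to 1.29% and 0.784% to 1.71%, epidermis markers (12 rows) 0.602% to 1.16% and 0.793% to 0.993%, and neural markers (13 rows) 0.199% to 0.228% and 0.180% to 0.209%. Endothelial markers (11 rows) took 0.00947% to 0.0147% and 0.0157% to 0.0259%, without overlap between groups (two-sided exact permutation p = 0.0286, the smallest that 4 against 4 libraries allow, adjusted p = 0.172 over 6 marker lists). This list holds stab2 and MRC1, which differed between groups at the adjusted limit under some of the other settings given below. It was also chosen with earlier results of these data known, so its lack of overlap and its p do not stand as evidence. Macrophage and neutrophil markers (18 rows, 5 of them at 0 in all libraries) took 0.0120% to 0.0144% and 0.00902% to 0.0158%. In such mixed samples fewer cells of a type and less RNA per cell cannot be told apart, and the part that tissue makeup has in the values below was not tested.

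Exposure to the lipid came with no p53 target or apoptosis gene that passed the test. In edgeR's quasi-likelihood test with Benjamini-Hochberg adjustment 0 of the 9 tested rows had an adjusted p of at most 0.05, where 0% of the 14249 tested genes did. CCNG1 and cdkn1a had higher fitted values in treated libraries, and the other 7 rows had lower ones, a lean that was not tested. The median log2 fold change over the 9 rows was -0.29, and over all tested genes it was 0.00. 50.5% of all tested genes had a lower treated value. With an unadjusted p limit of 0.05, 3 rows were inside it, CCNG1 (higher) and TP53INP1 and bbc3 (lower), where 6.93% of all tested genes reached it, 3.63% higher and 3.30% lower. The same limit was reached by 3 of the rows in DESeq2, which gave casp8 in place of bbc3, and by 2 in limma-voom. The count was 0 without control 1 or control 4 and 1 without control 3, treated 5, treated 6 or treated 8. Groups did not overlap for CCNG1 and casp8, 2 of the 9, against 4.62% of all tested genes (2.34% higher and 2.29% lower). These 9 genes were chosen with earlier results of these data known, so neither share stands as evidence about them.

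**Figure D1:**
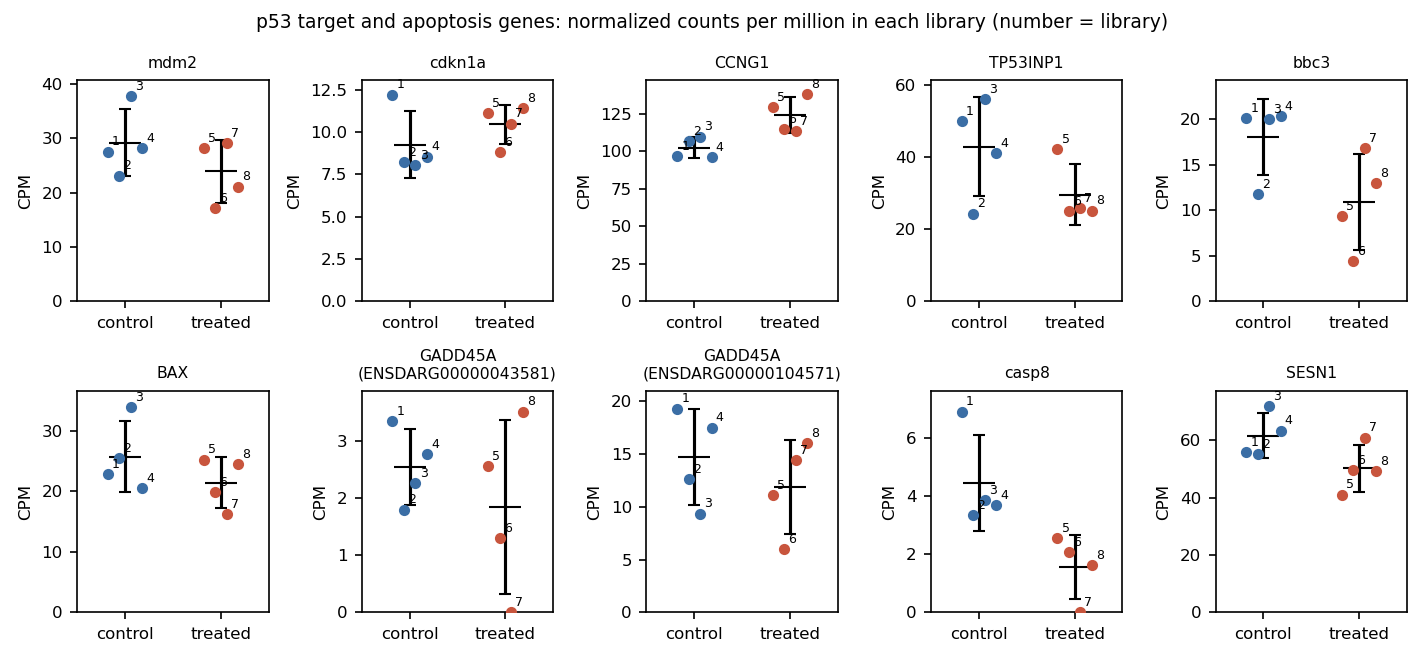
TMM-scaled CPM (y axis from 0) of each of the 10 rows in the 4 control (blue) and 4 treated (red) libraries. Numbers name the library, horizontal marks are group means and bars are 1 SD; CCNG1 and casp8 are the 2 tested rows whose groups did not overlap, and TP53INP1 shows control 2 beside treated 6, 7 and 8.

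Levels are given as CPM, counts scaled to a common library size by TMM without correction for gene length, so they are compared between libraries and never between genes. mdm2, the negative regulator of p53, stood at 27.5, 23.1, 37.7 and 28.2 CPM in controls 1 to 4 and at 28.2, 17.1, 29.1 and 21.1 CPM in treated 5 to 8. The groups overlapped, with the highest value in control 3 and the lowest in treated 6. Its means were 29.1 ± 6.17 and 23.9 ± 5.74 CPM (SD, n = 4), and the log2 fold change was -0.29 ± 0.23 (SE, 95% interval -0.77 to 0.19, edgeR adjusted p = 0.85). Leaving out single libraries gave values from -0.41 (without treated 7) to -0.15 (without control 3).

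MDM4, the partner of mdm2 that blocks p53 activity, stood at 49.8 ± 1.72 and 46.7 ± 6.54 CPM (SD, n = 4; -0.09 ± 0.15 SE on the log2 scale, edgeR adjusted p = 0.943). Its control values lay close together, from 47.6 to 51.3 CPM, and its treated values lay on both sides of them, from 38.0 CPM in treated 5 to 53.7 CPM in treated 8. p53 is regulated mainly as a protein, which these libraries do not measure.

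Genes of cell cycle control went in both directions. cdkn1a, which encodes the cyclin-dependent kinase inhibitor p21, stood at 12.2, 8.21, 8.06 and 8.54 CPM in controls and at 11.1, 8.81, 10.5 and 11.4 CPM in treated libraries. All 4 treated libraries lay above controls 2, 3 and 4, and all 4 lay below control 1. The log2 fold change was 0.17 ± 0.27 (SE, 95% interval -0.41 to 0.74, edgeR adjusted p = 0.939), and 0.33 without control 1. Only 137 counts in the treated group and 152 in controls stand behind these values. The spread of cdkn1a CPM within groups was 21.1% of the mean in controls and 11.0% in treated libraries. Counting alone would give 16.2% and 17.1% if the values are plain read counts, which the labels do not state.

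CCNG1, the cyclin G1 gene and a classical p53 target, was the most precisely measured of the 9. It stood at 96.6, 106.8, 109.7 and 95.8 CPM in controls and at 129.3, 114.5, 113.3 and 138.2 CPM in treated libraries. Every treated library lay above every control, with treated 7 the closest to control 3. Means were 102.2 ± 7.04 and 123.8 ± 12.0 CPM (SD, n = 4), a 1.21-fold difference with a log2 fold change of 0.28 ± 0.12 (SE, 95% interval 0.03 to 0.53). It did not pass (edgeR adjusted p = 0.669), and under the alternatives tried its adjusted p ran from 0.529 in DESeq2 to 0.906. The unscaled counts summed to 1632 in controls and 1633 in treated libraries, and the difference appears once counts are scaled to library size. Scaling to total counts alone gave 0.25. Within groups its CPM varied by 6.89% and 9.71% of the mean, where counting alone would give 4.95% in both if the values are plain read counts.

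GADD45A encodes a growth arrest protein that binds PCNA and stress kinases. The row that could be tested (ENSDARG00000104571) stood at 19.3, 12.6, 9.35 and 17.5 CPM in controls and at 11.1, 5.96, 14.4 and 16 CPM in treated libraries. Values overlapped, with the lowest in treated 6 and the next in control 3. Its log2 fold change was -0.32 ± 0.32 (SE, edgeR adjusted p = 0.877) and -0.09 without treated 6. The other row (ENSDARG00000043581) held 16, 7, 7 and 12 counts in controls and 6, 5, 0 and 13 in treated libraries, too few for the test.

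The genes tied to stress metabolism and autophagy had lower treated means. TP53INP1, a p53-induced nuclear protein that also takes part in autophagy, stood at 50.1, 24.4, 56.1 and 41.1 CPM in controls and at 42.2, 25.1, 25.8 and 25.2 CPM in treated libraries. The values formed a high set of control 1, 3, 4 and treated 5 and a low set of control 2 and treated 6, 7 and 8, so that 1 library of each group lay with the other group. The log2 fold change was -0.55 ± 0.25 (SE, 95% interval -1.09 to -0.01, edgeR adjusted p = 0.717), -0.76 without treated 5 and -0.40 without control 3. Red cell markers took 0.698%, 0.772% and 0.740% of counts in control 1, control 3 and treated 5 and 0.313% to 0.463% in the other 5 libraries. These 3 libraries held the highest TP53INP1 values, whereas control 4, at 41.1 CPM, had a red cell share of 0.351%. The same 3 also had the highest shares of macrophage and neutrophil markers, 0.0143%, 0.0144% and 0.0158%, against 0.00902% to 0.0135% in the other 5. None of the other marker lists had its highest shares in these 3 libraries. The part of red cell, macrophage or neutrophil content in the TP53INP1 values was not tested.

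SESN1, a sestrin that restrains mTORC1 signalling and limits oxidative stress, stood at 55.9, 55.2, 71.9 and 63.3 CPM in controls and at 41.0, 49.5, 60.9 and 49.1 CPM in treated libraries. Treated 5, 6 and 8 lay below all controls, and treated 7 lay among them. Means were 61.6 ± 7.80 and 50.1 ± 8.18 CPM (SD, n = 4; -0.29 ± 0.16 SE on the log2 scale, 95% interval -0.63 to 0.05, edgeR adjusted p = 0.766).

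**Figure D2:**
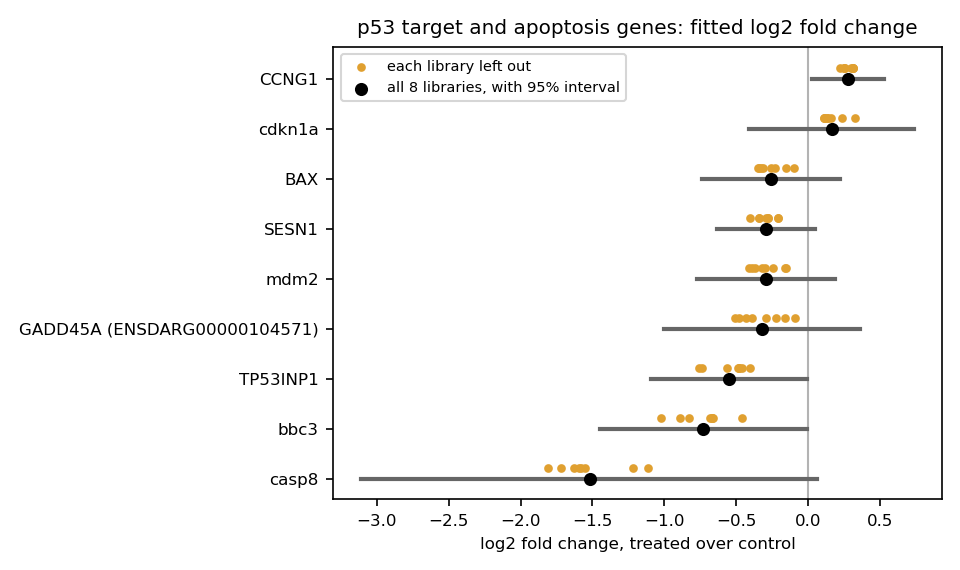
Fitted log2 fold change, treated over control (x axis), of the 9 tested rows. Black points with grey bars are estimates from all 8 libraries with 95% intervals and orange points are estimates with each library left out; the intervals of CCNG1 (0.03 to 0.53), TP53INP1 (-1.09 to -0.01) and bbc3 (-1.45 to -0.01) do not reach 0, and casp8 has the widest.

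Among the genes of mitochondrial cell death, bbc3 had the lower fitted ratio of the 2 described here. It encodes Puma, a BH3-only protein that neutralizes BCL2-type survival proteins, and it is a direct p53 target. It stood at 20.1, 11.8, 20.0 and 20.3 CPM in controls and at 9.39, 4.40, 16.8 and 13.0 CPM in treated libraries. Controls 1, 3 and 4 lay close together above all treated libraries, and control 2 lay below treated 7 and treated 8. Means were 18.1 ± 4.17 and 10.9 ± 5.28 CPM (SD, n = 4), a ratio of 0.603 with a log2 fold change of -0.73 ± 0.34 (SE, 95% interval -1.45 to -0.01). The gene did not pass (edgeR adjusted p = 0.717). Omission of treated 6 gave -0.46 and omission of treated 7 gave -1.02.

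BAX, the pore-forming effector on the mitochondrial membrane, stood at 22.8, 25.4, 33.9 and 20.5 CPM in controls and at 25.2, 19.9, 16.2 and 24.4 CPM in treated libraries. Apart from the high value of control 3 and the low value of treated 7 the libraries of both groups covered the same range. The log2 fold change was -0.26 ± 0.22 (SE, 95% interval -0.74 to 0.22, edgeR adjusted p = 0.859) and -0.10 without control 3.

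casp8, the initiator caspase of the death receptor pathway, had the lowest fitted ratio of the 9 rows and the fewest counts among the tested ones. Controls held 33, 13, 12 and 16 counts and treated libraries 6, 8, 0 and 6, or 6.92, 3.34, 3.87 and 3.69 CPM against 2.56, 2.07, 0 and 1.63 CPM. Every control lay above every treated library. The row passed the filter on low counts through the control group, so the lack of overlap is partly set by the filter. Its log2 fold change was -1.52 ± 0.75 (SE, 95% interval -3.11 to 0.06, edgeR adjusted p = 0.73), -1.11 without treated 7 and -1.81 without treated 5. DESeq2 gave no adjusted p for it. Treated 7 listed 272 tested genes, 1.91% of all, at 0 counts, where the other libraries listed from 52 in control 4 to 410 in treated 5. casp10, the paralogous initiator caspase, was also at 0 in treated 7, and so were FDXR and diablob, 2 other tested rows of the pathway lists described below.

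**Figure D3:**
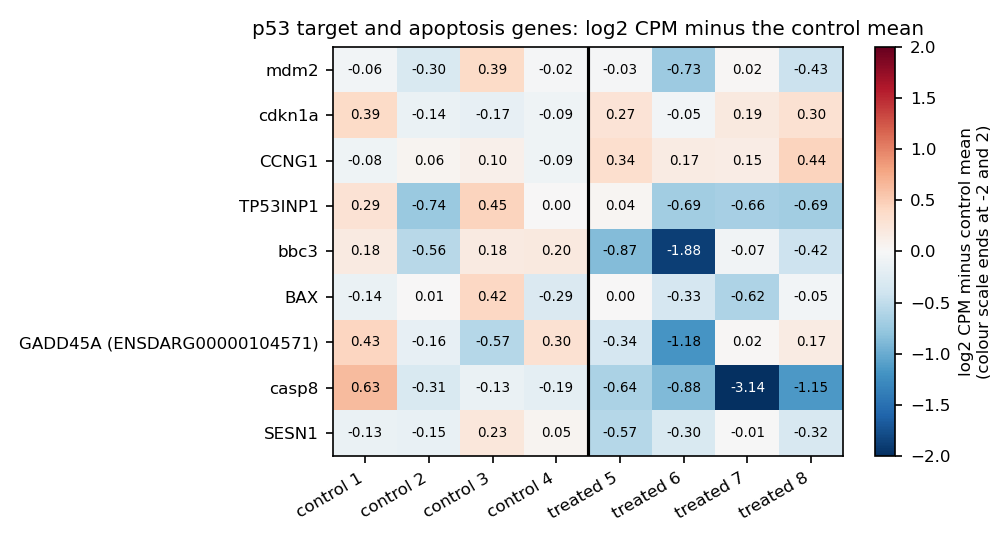
log2 CPM of the 9 tested rows in each library minus the mean of the 4 controls, with the value in each cell (columns are libraries, the black line parts controls from treated, and colours end at -2 and 2). Treated 6 holds the lowest values of mdm2, bbc3 and GADD45A (-0.73, -1.88 and -1.18), and control 2 is low for TP53INP1 (-0.74) and bbc3 (-0.56).

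Values of the 2 groups overlapped in 7 of the 9 tested rows, and single libraries recurred at the low end. Treated 6 held the lowest of the 8 values in 3 of the 9 rows (mdm2, bbc3 and GADD45A) and was among the 3 lowest in 7. Control 2 was among the 3 lowest in 5 rows and treated 8 in 4. How often each library was lowest over all tested genes was not counted. These counts therefore do not tell a shift of a whole library from one of these genes. The median over the 9 rows of log2 CPM minus the control mean was -0.69 in treated 6, -0.32 in treated 8, -0.03 in treated 5 and -0.01 in treated 7, and between -0.16 and 0.18 in the controls. In the plot of centred values by library the 2 members with higher treated means, cdkn1a and CCNG1, were at -0.05 and 0.17 in treated 6. For cdkn1a this was the lowest treated value, at 8.81 CPM, though above controls 2, 3 and 4. For CCNG1 it was 114.5 CPM, above every control.

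Across the 8 libraries mdm2 was compared with the other 8 tested rows on log2 CPM. bbc3 and TP53INP1 had the highest Pearson coefficients, with r = 0.78 and 0.75 (exact permutation p = 0.0237 and 0.0318, adjusted p = 0.127 for both over 8 relations) and Spearman rho = 0.60 and 0.69 (exact permutation p = 0.132 and 0.0694, adjusted p = 0.352 and 0.278). SESN1 had r = 0.58 and the highest rho, 0.71 (exact permutation p = 0.131 and 0.0576). Treated 6 and control 3 were the 2 libraries farthest from the median of mdm2. Without them r was 0.36 for bbc3, 0.60 for TP53INP1 and 0.22 for SESN1 (exact permutation p = 0.456, 0.322 and 0.675). Leaving out these libraries narrows the range of mdm2, which by itself can lower r. The coefficients over the remaining 6 libraries were not tested against each other. Deviations from the group means gave r = 0.71 for bbc3, 0.67 for TP53INP1 and 0.41 for SESN1. For BAX, GADD45A, casp8, cdkn1a and CCNG1, r was 0.39, 0.32, 0.10, -0.07 and -0.29 (adjusted exact permutation p of 0.645 to 0.854). None of the 8 relations passed the adjustment.

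The 5 genes most like mdm2 over the 8 libraries, out of 10665 named genes with a mean of at least 5 CPM, were SAMD11, a row named EZR (ENSDARG00000020944), txnb, crlf1a and a row named U1 (ENSDARG00000082628). Their Pearson r with mdm2 ran from 0.93 for U1 to 0.97 for SAMD11 and EZR, and their rho from 0.79 to 0.98. mdm2 as the reference and casp8, whose mean was below 5 CPM, were not ranked. None of the other tested rows of the 9 genes is among the 5. These values describe 8 libraries and the genes were picked as the highest of many.

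In the wider pathway, 133 genes were listed by role, of which 126 matched 139 rows and 101 rows were tested. 0 of them passed in edgeR, 4 higher and 5 lower rows lay inside the unadjusted limit of 0.05, where 3.63% and 3.30% of all tested genes did. DESeq2 also called 0, with no adjusted p for 38 of the rows. Groups did not overlap in 2 higher and 2 lower of the 101 rows, against 2.34% and 2.29% of all tested genes. Of the 101, 44 were higher and 57 (56.4%) lower, where 50.5% of all tested genes were lower, and their median on the log2 scale was -0.04. The 4 higher and 5 lower rows inside the unadjusted limit include 1 and 2 rows of the 9 genes described above. Outside those genes, 3 higher and 3 lower of 92 rows lay inside it. The median over these 92 rows was -0.02, with 42 higher and 50 lower.

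**Figure D4:**
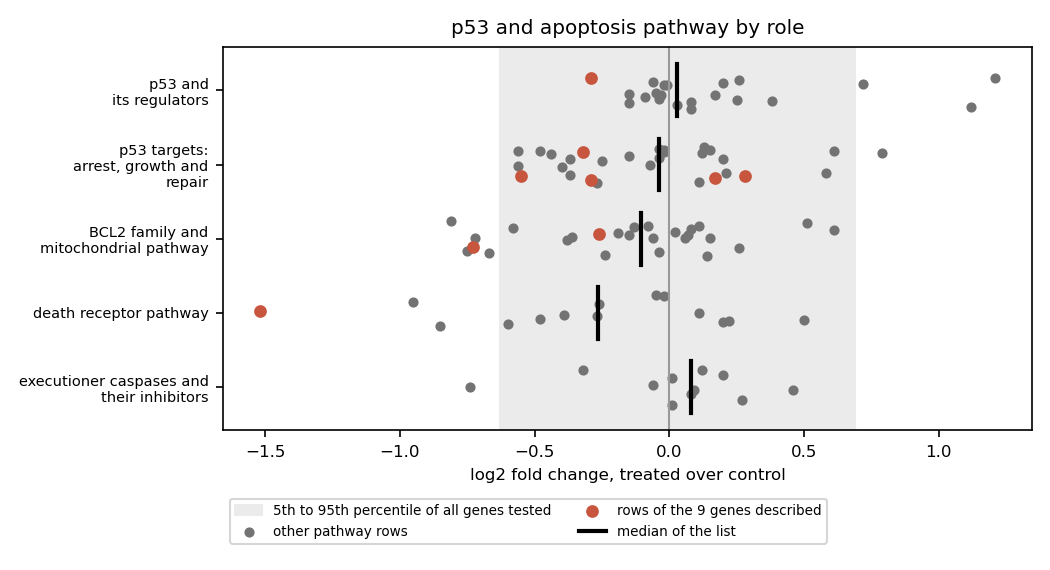
Fitted log2 fold change, treated over control (x axis), of each tested row of the 5 role lists (points jittered vertically, the rows described above in red), with the list median as a black bar and the 5th to 95th percentile of all 14249 tested genes in grey (-0.63 to 0.69). Medians run from -0.26 for the death receptor pathway to 0.08 for executioner caspases and their inhibitors.

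Regulators of p53 (21 rows) had a median of 0.03 on the log2 scale, with 11 rows higher and 10 lower. The smallest p belonged to ATR, the kinase that senses stalled replication forks, at 5.03, 11.8, 9.68 and 9.70 CPM in controls and 9.39, 17.1, 15.3 and 17.1 CPM in treated libraries (log2 fold change 0.72 ± 0.30 SE, edgeR adjusted p = 0.656). Treated 6, 7 and 8 lay above all controls and treated 5 did not. Next came a row named TP53BP2 (ENSDARG00000009136), a p53-binding protein that promotes its death function, at 0.25 ± 0.14 (SE, edgeR adjusted p = 0.774). The other row named TP53BP2 (ENSDARG00000054858) had -0.04 ± 0.17 (SE).

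The list of targets in arrest, growth and repair (29 rows tested) had a median of -0.04, with 11 higher and 18 lower. It also holds paralogs such as CCNG2, which is not a classical p53 target. Beside CCNG1, the smallest p belonged to a row named GADD45B (ENSDARG00000027744), a stress-induced relative of GADD45A. It stood at 88.4, 64.9, 61.3 and 57.9 CPM in controls and 50.8, 52.1, 58.8 and 39.6 CPM in treated libraries (log2 fold change -0.44 ± 0.17 SE, edgeR adjusted p = 0.629). Treated 7 alone lay above the lowest control, and the value was -0.29 without control 1. The second row named GADD45B had 0.15 ± 0.29 (SE).

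The BCL2 family and mitochondrial pathway (26 rows tested) had a median of -0.10, with 10 higher and 16 lower. AIFM1, a mitochondrial oxidoreductase that can promote caspase-independent death, stood at 22.4, 16.2, 25.5 and 27.2 CPM in controls and 32.4, 38.1, 27.9 and 40.7 CPM in treated libraries. The groups did not overlap, though treated 7 lay close to control 4 (log2 fold change 0.61 ± 0.21 SE, edgeR adjusted p = 0.576). BCL2L1, the survival protein Bcl-xL that red cell precursors depend on, stood at 55.9, 53.9, 57.4 and 50.3 CPM in controls and 46.9, 36.0, 46.8 and 40.7 CPM in treated libraries. Its groups did not overlap either, with lower treated values (log2 fold change -0.36 ± 0.15 SE, edgeR adjusted p = 0.669).

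Within that list the BH3-only genes, which start mitochondrial death by binding BCL2-type proteins, were grouped after their values had been seen, and so carry no test. 7 of 8 rows were tested, 6 had lower treated values and 1 higher, and the median difference on the log2 scale was -0.72. Without treated 6 this median was -0.46, with 5 lower and 2 higher, and without the other libraries it ran from -0.60 to -0.82. pmaip1 (Noxa, a p53 target), bada, bida and bcl2l11 (Bim) had -0.81 ± 0.45, -0.75 ± 0.35, -0.72 ± 0.42 and -0.58 ± 0.54 (SE), badb had -0.24 ± 0.44 and bmf2 0.26 ± 0.64. The edgeR adjusted p of the 7 rows lay between 0.717 and 0.961. Treated 6 held the lowest of the 8 values in 6 of the 7 rows, and treated 7 in bada. The share over all tested genes was not counted here either. pmaip1 stood at 13.4, 16.9, 8.71 and 8.08 CPM in controls and at 14.1, 2.33, 4.20 and 7.32 CPM in treated libraries, so that treated 5 lay above 3 of the controls. For this gene omission of treated 6 gave -0.51 and omission of treated 5 gave -1.35. Without treated 6, bida had -0.47, bcl2l11 -0.27 and badb 0.02. bmf2 turned to -0.44 without treated 8.

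**Figure D5:**
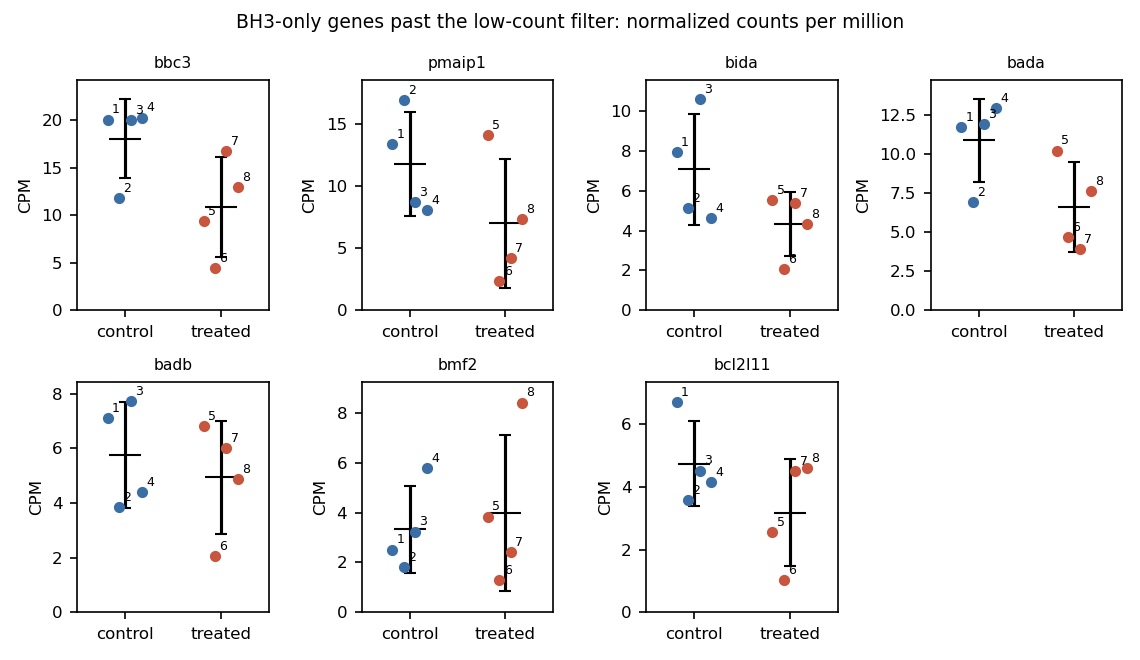
TMM-scaled CPM (y axis from 0) of the 7 tested BH3-only genes in control (blue) and treated (red) libraries, with library numbers, group means and 1 SD bars. Treated 6 is the lowest library in 6 of the 7 panels, and the groups overlap in all 7.

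Genes of the death receptor pathway (14 rows tested) had a median of -0.26, with 4 higher and 10 lower. After casp8, the smallest p belonged to a row named TRAF2 (ENSDARG00000030173), an adaptor of tumour necrosis factor receptors, at 16.2 ± 2.23 and 11.7 ± 2.58 CPM (SD, n = 4; -0.48 ± 0.25 SE on the log2 scale, edgeR adjusted p = 0.753). Executioner caspases and their inhibitors (11 rows tested) had a median of 0.08, with 8 higher and 3 lower. BIRC5 (survivin, which acts in cell division and against death) had -0.74 ± 0.39 (SE, edgeR adjusted p = 0.756). Without single libraries it ran from -1.07 (without treated 6) to -0.36 (without control 3). In control 3 it stood at 18.4 CPM against 3.90 to 9.84 CPM in the other 7 libraries.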

How the data were processed

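Raw counts for 8 libraries came as a single gene table from the authors. Per the labels' protocols, a stranded low-input kit was used on total RNA, with paired 100 bp reads. The submitters' processing notes list the build GRCz11, StringTie 1.3.3b, HISAT2 2.1.0, DESeq2 1.22.1, Trim Galore 0.5.0 and CASAVA 1.8.2 without saying what each did. Annotation release, strand setting and counting step are not stated there, which leaves genes that overlap, lie antisense or have close copies uncertain. 0 sample columns were left out. Symbols came from a supplied name table that matched 28975 of 32020 rows.

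In edgeR 4.0.16 under R 4.3.3, filterByExpr left 14249 genes, and TMM set the scaling. Groups came from the treatment labels and were compared with the robust quasi-likelihood F-test, without covariates, at a Benjamini-Hochberg adjusted p of 0.05 over all genes tested. The common biological coefficient of variation was 0.265. Log2 CPM used a prior count of 2. Marker shares and correlations used two-sided exact permutation tests. Chi-square per degree of freedom between the 12 replicate pairs lay from 7.56 to 18.4, so no pair agreed within the sampling noise of plain read counts. The fit was also run on simulated data, and that run is not used here to say what size of difference could be found.

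The genes and lists were chosen with earlier results of these data known. Genes named are all rows of the 9 genes, MDM4, the 2 rows of smallest p per role list (none passed) and the 5 genes most like mdm2, apart from genes left unreported here. The BH3-only group, casp10, FDXR, diablob, stab2, MRC1 and, in the closing section, sesn2, sesn3 and CCNG2 were named after their values were seen. Other scalings and low-count filters were tried, as were DESeq2 1.42.0, limma-voom (limma 3.58.1), non-robust dispersion, 1 surrogate variable (sva 3.50.0), summing rows of one symbol, and each library left out.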

Additional observations from a re-analysis of the deposited data

Results flagged for a closer look

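In 6 of the groups of 4 libraries looked at, 1 library stood apart from the other 3 by Dixon's ratio. Chance gives this in about 1 of 20 groups, and 80 groups were looked at. cdkn1a was 12.2 CPM in control 1 and 8.06 to 8.54 CPM in the other controls. casp8 was 6.92 CPM in control 1 and 3.34 to 3.87 CPM in the others. bbc3 was 11.8 CPM in control 2 and 20.0 to 20.3 CPM in the other controls. TP53INP1 was 42.2 CPM in treated 5 and 25.1 to 25.8 CPM in the other treated libraries. The share of counts taken by endothelial markers was 0.0157% in treated 5 and 0.0252% to 0.0259% in the other treated libraries, and that of epidermis markers 0.993% in treated 8 and 0.793% to 0.813% in the others.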

How the results depend on the processing

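No paired analysis was possible because the groups share no replicate numbers. 0 rows of the 9 genes and 0 rows of the pathway lists passed under any of the 11 other settings or without any library. DESeq2 gave no adjusted p for cdkn1a and casp8 among the 9 tested rows and for 38 pathway rows, which so could not pass there, and casp8 was not tested with a mean of at least 5 CPM. Wherever they were tested, the 9 rows kept their direction. Over all genes edgeR called 0, and 4 with no low-count filter, 2 with a mean of at least 5 CPM, 2 with 1 surrogate variable, 18 in DESeq2 and 0 to 1 without single libraries. Of the rows of the 9 genes, 3 had an unadjusted p within 0.05, 1 with non-robust dispersion and 0 to 3 without single libraries. Without single libraries badb ran from -0.42 to 0.02 and bmf2 from -0.44 to 0.67. The cause of these changes was not tested. Few counts stand behind casp8 and the untested GADD45A row. Leaving libraries out of the BH3-only median was chosen after seeing the data.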

Other observations

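Of 4 paralogs of the 9 genes, sesn2 and casp10 had the same sign of difference as SESN1 and casp8, and sesn3 and CCNG2 the opposite sign to SESN1 and CCNG1. sesn2, a sestrin induced by nutrient and unfolded protein stress, stood at 23.1, 16.7, 39.0 and 18 CPM in controls and at 26.9, 9.07, 13.5 and 17.1 CPM in treated libraries (log2 fold change -0.56 ± 0.34 SE, adjusted p = 0.796 in edgeR). The 3 highest values were those of control 3, treated 5 and control 1, and it had -0.24 without control 3 and -0.86 without treated 5. sesn3, a sestrin regulated by FOXO factors in mammals, stood at 5.45, 3.34, 5.48 and 8.08 CPM in controls and at 6.83, 7.51, 11.4 and 8.40 CPM in treated libraries (0.61 ± 0.35 SE, edgeR adjusted p = 0.774). CCNG2, the cyclin G paralog that is not a classical p53 target, had -0.15 ± 0.14 (SE, edgeR adjusted p = 0.871), with treated values of 49.1 to 61.4 CPM within or just below the control range of 53.1 to 65.2 CPM. casp10 had -0.85 ± 0.78 (SE, edgeR adjusted p = 0.865), -1.93 without treated 5 and -0.43 without treated 7. It was 7.25 CPM in treated 5, the highest of the 8 libraries, and 0 to 2.17 CPM in the other treated libraries. The differences between paralogs were not tested.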
